A study of Ovis aries with 23 samples.

Results

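MX2 (ENSOARG00000010231 in the count files) is the gene of an interferon-induced antiviral protein, and its RNA was followed across all 23 sheep pars tuberalis (PT) samples of the study. It is 1 gene of the 25197 that were counted, and was chosen by its levels in these samples, which spread widely within groups and fell to 0 in some. Its levels and its differences between groups are therefore descriptions and carry no test. The study moved animals from short photoperiods (SPs) to long photoperiods (LPs) and asked how the PT, the melatonin-responsive tissue on the pituitary stalk, changes its gene expression. All animals were neutered male Scottish blackface sheep, and the group of comparison was that of SPs, with 5 samples. The other groups were 6 samples each from LP day 1, LP day 7, and LP day 28. Samples are named here by group and by the sample number in their labels, which do not say whether each sample is a separate animal, so the spread between samples may be technical in part.

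Interferons are secreted by cells that sense viral nucleic acid. They bind receptors on the same and on neighboring cells, and these receptors activate the STAT proteins, which with IRF9 switch on a large set of interferon-induced genes. MX1 and MX2 are related dynamin-like GTPases of this set that block steps in the life of viruses inside the cell. In RefSeq's sheep annotation, MX2 lies between FAM3B, the gene of a cytokine-like secreted protein, and MX1, and overlaps neither. That annotation belongs to another assembly than the counts, so no positions are given.

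Total counts per sample ran from 307952 in LP day 1 sample 4 to 4413929, with a median of 3332320 and 1852503 in the second shallowest sample. Levels below are read counts scaled to the size of each library (CPM), normalized by the TMM method over all 23 samples. A level of 3 counts, taken as the detection limit, equals 8.90 CPM in the shallowest sample and no more than 1.52 CPM elsewhere, a limit that covers counting error only. CGA and TSHB, hormone subunits of PT thyrotrophs that the pars distalis also makes, were counted in every sample. They stood at 3886 to 11559 CPM and at 47.0 to 1580 CPM. MTNR1A, the melatonin receptor gene also listed as a PT marker, reached 41.5 CPM in LP day 7 sample 5. It had 0 counts in LP day 1 sample 4 and 2 in LP day 7 sample 4, below the detection limit. The share of PT tissue in each sample was not tested. PRL, the prolactin gene of the adjoining pars distalis, was also counted in every sample, at 21521 to 242617 CPM. In bulk tissue of this kind, fewer cells with an RNA and less of that RNA per cell cannot be told apart.

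MX2 varied widely between samples of the same group. On SPs its levels were 30.5, 5.08, 88.3, 14.3, and 11.6 CPM in samples 1 to 5. At LP day 1 they were 23.8, 27.5, 0, 0, 27.7, and 11.2 CPM in samples 1 to 6. Samples 3 and 4 of LP day 1 held no MX2 count at all, whereas sample 3 of the SP group stood well above the other SP samples. At LP day 7 the levels were 61.8, 20.5, 804.6, 14.5, 79.9, and 77.5 CPM in samples 1 to 6. Those of LP day 28 were 18.02, 7.19, 6.25, 7.40, 25.2, and 18.3 CPM. LP day 7 thus held the highest sample of the series, sample 3 with 2675 MX2 counts, and 3 further samples above all samples of LP day 1 and LP day 28. LP day 7 samples 2 and 4 lay within the range of each of the other groups. Samples 1, 5, and 6 of LP day 7 lay below the 88.3 CPM of SP sample 3, so the groups overlap.

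**Figure D1:**
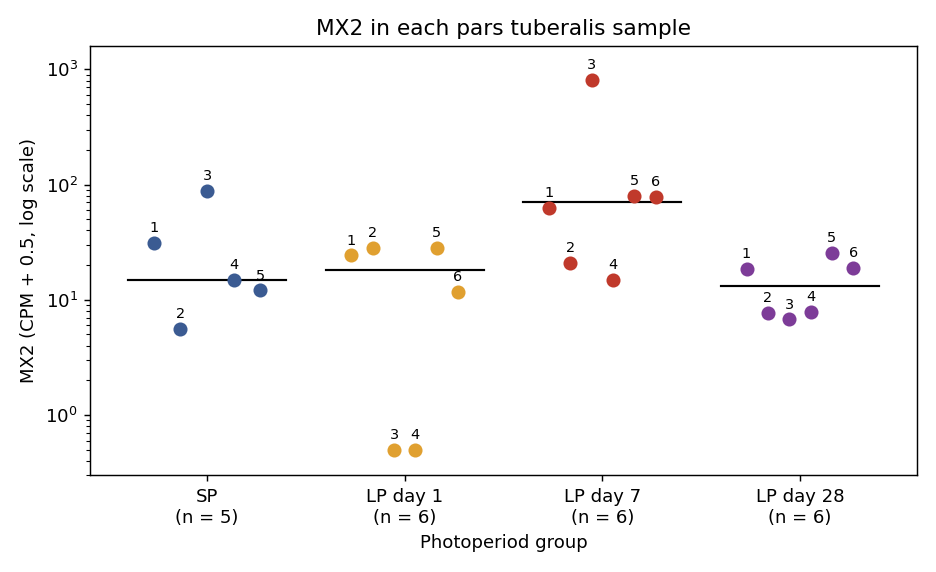
MX2 level in each of the 23 samples (CPM plus 0.5, log scale) by photoperiod group, with the sample number beside each point and a bar at the group median. LP day 7 sample 3 stands at 804.6 CPM, samples 1, 5, and 6 of that group at 61.8 to 79.9 CPM, and LP day 1 samples 3 and 4 at 0.

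The SP samples had a mean MX2 level of 29.9 CPM ± 33.9 (SD, n = 5) and the LP day 1 samples one of 15.02 CPM ± 13.1 (SD, n = 6). The mean was 176 CPM ± 309 (SD, n = 6) for LP day 7 and 13.7 CPM ± 7.87 (SD, n = 6) for LP day 28. In order of their medians, the groups were LP day 7 with 69.6 CPM, LP day 1 with 17.5 CPM, SPs with 14.3 CPM, and LP day 28 with 12.7 CPM. The last 3 of these medians differ by less than the spread within any of the 3 groups. A single sample carried much of the LP day 7 mean, which was 50.8 CPM ± 31.3 (SD, n = 5) without sample 3. The SP mean was 15.3 CPM ± 10.8 (SD, n = 4) without its sample 3.

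Few genes varied as much within groups, but MX2 was chosen by its spread, so its rank here is a description only. The SD of MX2 within groups, on the log2(CPM + 0.5) scale, was 1.97, above that of 99.9% of the 14998 genes compared, whose median was 0.33. Of the 4761 genes with a mean level within 2-fold of that of MX2, 3 had a larger SD, and their median was 0.24. By group, the SD of MX2 on this scale was 1.51 for SPs, 2.85 for LP day 1, 2.02 for LP day 7, and 0.83 for LP day 28. The LP day 28 samples were therefore the most alike, and the 0 counts of 2 samples set the value at LP day 1. For MX1 the within-group SD was 1.39 over all groups and 0.32 at LP day 28.

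MX2 had no count in LP day 1 samples 3 and 4. The gene and this pair of samples were picked by these 0 counts, so the comparison with other genes is a description only. Of 12135 genes with a median of at least 5 CPM in the other 21 samples, MX2 was the 1 gene with no count in both. Its median in those 21 samples was 20.5 CPM and its lowest level 5.08 CPM. A count of 0 allows up to 0.936 CPM in sample 3, below every level seen elsewhere. In the shallow sample 4 it allows up to 8.90 CPM, a range in which 4 samples of the other groups lay, so the depth of sample 4 cannot show that MX2 was lower there than in those samples. Of genes with a median of at least 10 CPM elsewhere, sample 4 held no count for 59 and sample 3 for 1, which was MX2.

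MX1 was counted in both samples, although they held its 2 lowest levels of LP day 1. It stood at 42.1 CPM in sample 3 and 38.6 CPM in sample 4, 0.614-fold and 0.562-fold of the median of the other samples of the group (CPM + 0.5). To follow the pathway, 91 symbols of interferon genes were listed by role, of which 28 besides MX2 could be matched to an identifier. These are 2 factors that carry or amplify the signal, 3 sensors of nucleic acid, 14 antiviral effectors, 3 genes of the ISG15 system, 5 genes of antigen presentation, and 1 chemokine. No ligand, receptor, or feedback inhibitor was matched. Symbols came from the study's own gene tables, which hold genes that it called changed, so counts over these 28 genes are not independent evidence of a change. Over the 28 genes, the median fold relative to the other samples of the group was 0.907 in sample 3 and 0.916 in sample 4. Single genes ran from 0.457-fold for IFIT1, an inhibitor of viral RNA translation, to 1.62-fold in sample 3. They ran from 0.164-fold for RSAD2, the viperin enzyme, which had no count, to 2.13-fold in sample 4. The median of RSAD2 in the other samples of the group was 2.55 CPM, below the 8.90 CPM limit of sample 4. Its value there therefore cannot show that RSAD2 was low. In sample 3, some interferon genes were thus low beside MX2 and others were not. The mean chi-square per gene between the 2 samples was 1.18 over 9126 genes, where 1 is counting noise. This measure is lower where depth is lower, and the 3 lowest values of any pair within a group, 1.18, 2.03, and 4.12, all involve the shallow sample 4. The same sample gave 7.59 with sample 5 and 9.34 with sample 2 of its group. Samples 3 and 4 were kept as 2, and whether they share material was not tested.

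LP day 7 sample 3 was the opposite case, in which MX2 was high together with most of the pathway. Of the 28 genes, 26 had their highest level of all 23 samples there, against 4.73% of all 14998 genes. The 28 come from tables of genes that the study called changed, and the sample was picked for its high levels. This contrast is therefore not independent evidence. Folds here are taken on CPM + 0.5 over the median of the other samples of the group. Their median over the 28 genes was 10.5, between 0.696 and 232, against 0.997 over all genes, and MX2 stood at 12.9-fold.

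The roles differed in how far their members stood out in this sample. Of the effectors, MX1 stood at 2137 CPM, 38.0-fold above the median of the other LP day 7 samples. OAS2, which makes the nucleotide signal that turns on RNA degradation, was 44.8-fold higher at 1003 CPM, and IFI6, a small membrane protein, 61.6-fold higher at 1172 CPM. RSAD2 was 68.6-fold higher at 104 CPM. All 14 effectors were highest in sample 3 of their group, by 3.40-fold to 68.6-fold.

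The ISG15 system gave the largest value. ISG17, the sheep form of the ubiquitin-like modifier ISG15, was at 1151 CPM in LP day 7 sample 3 and between 1.74 and 7.25 CPM in the other LP day 7 samples, a 232-fold difference. HERC6, a ligase of the same family as those that attach the modifier, was 50.6-fold higher, and UBA7, the enzyme that activates it, 8.96-fold higher. Of the sensors of viral RNA, DDX58 (RIG-I) was 38.7-fold and DHX58 10.5-fold higher, and ZBP1, a sensor of Z-form nucleic acid, was 18.6-fold higher. The transcription factors IRF7 and IRF9 were 9.93-fold and 7.30-fold higher.

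Among genes of antigen presentation, NLRC5, an activator of MHC class I genes, was 6.47-fold higher and CD274, the checkpoint ligand PD-L1, 5.60-fold higher, above some of the effectors. TAP1, a subunit of the peptide transporter, was 4.81-fold higher and B2M, the light chain of MHC class I, 2.10-fold higher. CD74, the invariant chain of MHC class II, stood at 0.696-fold and the T cell attractant CXCL9 at 1.74-fold, and these were the 2 of the 28 genes whose highest level lay in another sample. Markers of immune cells did not stand out in sample 3. Of 21 such markers 5 could be matched, namely PTPRC, CD2, CD4, CD5, and CD6. None of the 5 was highest there, their folds lay between 0.276 and 0.912, and their summed level was 44.5 CPM, within the 33.1 to 106 CPM of the LP day 7 samples. None of the 5 was at 0 in sample 3, but CD6, with the lowest fold, had a single count there, below the detection limit. No listed marker of B cells or macrophages was among those matched. The summed level ran from 25.1 to 175 CPM among SP samples, 42.6 to 49.9 CPM among those of LP day 1, and 49.6 to 156 CPM among those of LP day 28.

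**Figure D2:**
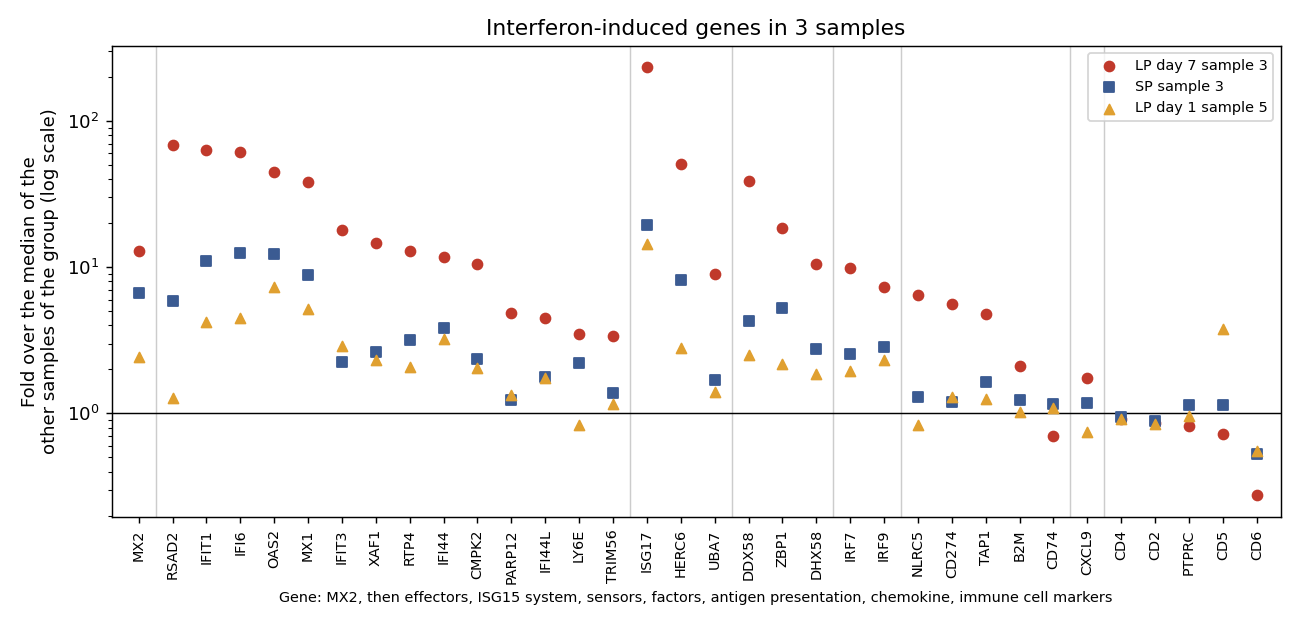
Level of MX2, the 28 interferon genes by role, and 5 immune cell markers in LP day 7 sample 3, SP sample 3, and LP day 1 sample 5, as a fold over the median of the other samples of the same group (CPM + 0.5, log scale). In LP day 7 sample 3, MX2 stands at 12.9-fold and ISG17 at 232-fold, whereas the immune cell markers lie below 1.

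In this sample MX2 was among the genes most confined to a single library. Over 13999 genes that reached 5 CPM somewhere, 34 were at least 4-fold above every other sample in 1 sample, and 25 of those 34 had their peak in LP day 7 sample 3. MX2 ranked number 5 of the 25, at 9.07-fold above the next sample. ISG17 came first at 11.4-fold, followed among genes with a symbol by BST-2A at 11.1-fold and BST-2B at 9.49-fold. The BST-2 genes are 2 copies of tetherin, a protein that holds budding viruses at the cell surface, between which the counting could split reads.

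A weaker form of the same pattern was seen in 2 other samples, and MX2 took part in it unequally. Both samples were picked because their interferon genes were high, so the counts of highest genes below are descriptions and not evidence. In SP sample 3, 21 of the 28 genes were highest of their group, against 19.3% of all genes, with a median of 2.59-fold. MX2 was 6.62-fold above the median of the other SP samples there and MX1 8.82-fold, at 500 CPM. The summed immune cell markers in this sample were 80.2 CPM. In LP day 1 sample 5, 19 of the 28 were highest of their group, against 18.6% of all genes, with a median of 1.99-fold. MX1 was 5.17-fold higher in that sample, at 311 CPM, and ISG17 14.3-fold higher, at 72.1 CPM. MX2 was also highest of its group there, 2.42-fold above the median of the other samples. Its level was 27.7 CPM, beside 27.5 and 23.8 CPM in samples 2 and 1 of the same group, whose MX1 levels were 59.7 and 75.9 CPM. The summed immune cell markers in sample 5 were 48.8 CPM.

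The reverse held in 3 samples of LP day 7. Relative to the median of the other 22 samples, MX2 was 3.34-fold higher in sample 1, 4.31-fold in sample 5, and 4.18-fold in sample 6. The median of the 28 other genes was 0.803, 0.747, and 1.02 in these samples, and none of the 28 reached 2-fold in any of them. MX1 was 1.26-fold, 0.858-fold, and 1.21-fold of the median. The same comparison gave 43.1-fold for MX2, 37.1-fold for MX1, and 10.8-fold for the median of the list in LP day 7 sample 3, where 26 of 28 genes reached 2-fold. MX2 was therefore above 3-fold in 4 of the 6 LP day 7 samples, and in 1 of these 4 most of the other interferon genes were high as well. The ratio of MX1 to MX2 levels depends on the lengths of the 2 genes and is used only to compare samples. It was 0.634 in LP day 7 sample 5 and 0.894 in sample 6, against 2.66 in sample 3. LP day 1 sample 5 had a ratio of 11.2, but SP sample 2, with MX1 at 58.6 CPM, had 11.5. A high ratio thus does not set LP day 1 sample 5 apart.

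**Figure D3:**
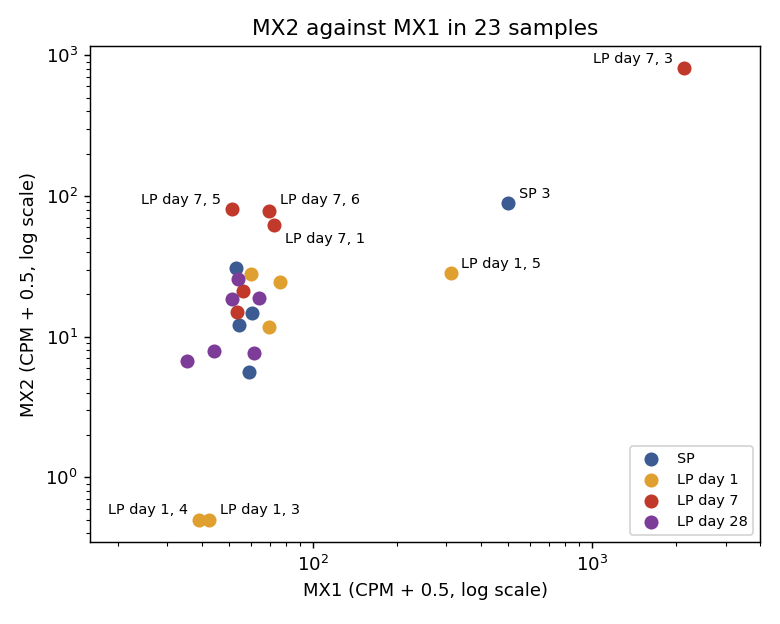
MX2 against MX1 in the 23 samples (CPM plus 0.5, both axes log scale), colored by photoperiod group. LP day 7 sample 3 is high in both, LP day 1 sample 5 is high in MX1 with MX2 at 27.7 CPM, LP day 7 samples 1, 5, and 6 are high in MX2 with MX1 at 50.7 to 71.9 CPM, and LP day 1 samples 3 and 4 have MX2 at 0.

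Differences between groups were fitted with edgeR on all genes, the log2 fold change of MX2 being given with its standard error (SE). No gene among the 28 passed the quasi-likelihood test of edgeR at a false discovery rate (FDR) of 0.05 in any of the 5 comparisons, and none passed in DESeq2. Because the 28 come from tables of genes that the study called changed, a larger share of calls among them than among all genes was partly fixed in advance. The shares below are given as descriptions only. All comparisons with LP day 7 share its 6 samples, and all comparisons with SPs share the 5 SP samples. For each, the values without SP sample 3, LP day 1 sample 5, and LP day 7 sample 3 are also given, a choice made after the levels were seen.

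From SPs to LP day 1, the log2 fold change of MX2 was -0.83 (SE 0.68) and the median of the 28 genes -0.46. The quasi-likelihood test called none of the 28, as it called 0% of all 14920 genes tested, and 5 of the 28 had an unadjusted p under 0.05, against 3.33% of all genes. An exact test with a common dispersion, which does not let the spread differ between genes, called 4 of the 28, all lower, against 0.456% of all genes in either direction and 0.342% lower. With SP samples 2, 3, and 5 alone it called 5, against 0.261%. Without SP sample 3 and LP day 1 sample 5, the exact test called 2 of the 28, against 0.522%, and the values were -0.09 (SE 0.67) for MX2 and -0.10 for the list.

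From SPs to LP day 7, the log2 fold change of MX2 was 2.53 (SE 0.95), above 27 of the 28 genes, whose median was 0.87. ISG17 had the larger value of 3.02 (SE 1.55). The quasi-likelihood test called none of the 28, against 0.266% of all genes, and 1 had an unadjusted p under 0.05, against 14.4%. The exact test called 20 of the 28, 18 higher and 2 lower, against 3.27% of all genes, of which 2.4% higher and 0.878% lower. With SP samples 2, 3, and 5 alone it called 12, against 1.8%. Without SP sample 3 and LP day 7 sample 3, this count fell to 2, both lower, against 3.41%, and the list median was -0.19. MX1 then stood at 0.09 (SE 0.13), whereas MX2 stood at 1.70 (SE 0.51), above all 28 genes.

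From LP day 1 to LP day 7, MX2 differed by 3.34 on the log2 scale (SE 0.90) and the list by a median of 1.15. The quasi-likelihood test called none of the 28, against 0.0201% of all genes, and 14 had an unadjusted p under 0.05, against 5.56%. The exact test called 20 of the 28, all higher, against 1.01% of all genes and 0.745% higher. Without LP day 1 sample 5 and LP day 7 sample 3, it called none, against 0.798%, and 1 of the 28 had an unadjusted p under 0.05. The list median was then -0.01 and MX1 stood at 0.02 (SE 0.17). MX2 remained at 1.76 (SE 0.60), above all 28 genes. LP day 1 samples 3 and 4, with no MX2 count, are part of this difference.

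From LP day 7 to LP day 28, the log2 fold change of MX2 was -3.71 (SE 0.84), below 27 of the 28 genes, whose median was -1.39. The quasi-likelihood test called none of the 28, against 0.00672% of all genes, and 20 had an unadjusted p under 0.05, against 7.13%. The exact test called 22 of the 28, all lower, against 1.69% of all genes and 1.02% lower. Without LP day 7 sample 3, it called none, against 1.16%, and the list median was 0.09. MX2 was still at -1.91 (SE 0.42), below all 28 genes, whose lowest value was -0.31 in ISG17.

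From SPs to LP day 28, MX2 differed by -1.17 on the log2 scale (SE 0.54) and the list by a median of -0.68. The quasi-likelihood test called none of the 28, against 0.67% of all genes, and 18 had an unadjusted p under 0.05, against 13.8%. The exact test called 16 of the 28, 15 lower and 1 higher, against 3.04% of all genes, of which 1.21% lower and 1.83% higher. With SP samples 2, 3, and 5 alone it called 17, against 2.88%. Without SP sample 3, it called 2 of the 28, 1 in each direction, against 3.08%, and MX2 stood at -0.21 (SE 0.43) beside a list median of -0.22. The samples left out were chosen for high list genes, so a list median closer to 0 without them is no finding. MX2 moved closer to 0 as well in all 5 comparisons. It kept its sign in each, although at LP day 1 and LP day 28 against SPs its value was smaller than its SE. In the 3 comparisons with LP day 7 it lay outside the range of the 28 genes.

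**Figure D4:**
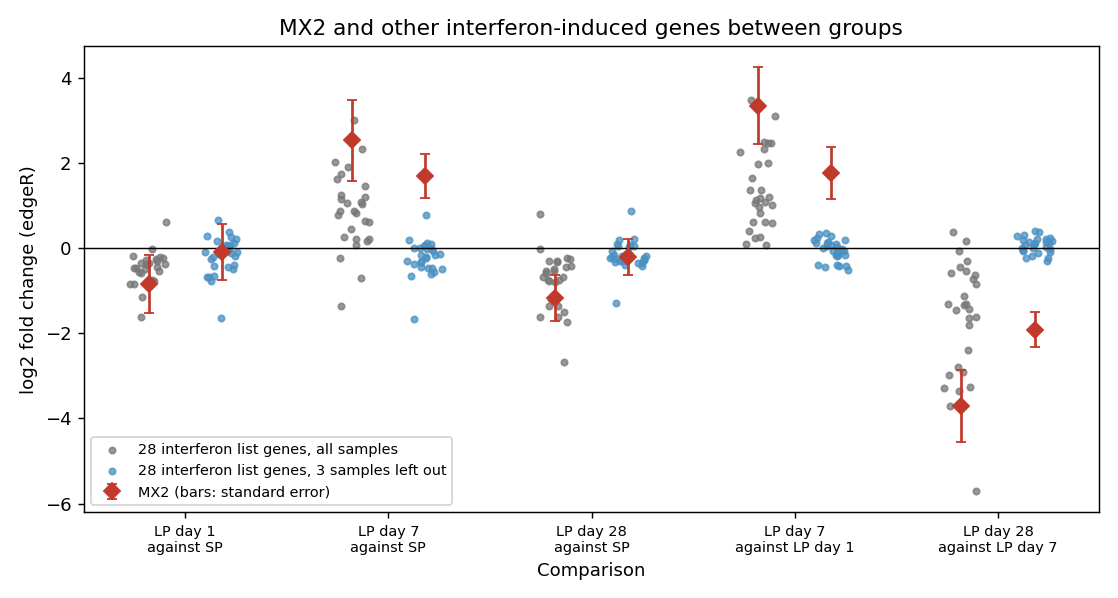
log2 fold change (edgeR) of MX2, as a diamond with its standard error, and of the 28 other interferon genes, as points, in 5 comparisons between groups. Gray points are from all samples and blue points from the fits without SP sample 3, LP day 1 sample 5, and LP day 7 sample 3, where these belong to the groups compared. Without them the 28 genes have medians between -0.22 and 0.09, whereas MX2 lies at 1.70 and 1.76 in the comparisons of LP day 7 with SPs and with LP day 1.

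The genes most like MX2 between samples were sought among the 1092 genes with a symbol and a mean of at least 1 CPM. Likeness was Pearson's r of the deviations from the group means on the log2(CPM + 0.5) scale over the 23 samples, and is a description, because samples share depth and tissue composition and the genes were ranked by it. ZCCHC14, a zinc finger gene, came first with r = 0.79, followed by DNAH7, an axonemal dynein heavy chain, with 0.74, and SLC23A2, a vitamin C transporter, with 0.74. Of the interferon genes, RSAD2 reached 0.73, MX1 0.70, and IFIT1 0.68, and BST-2A, outside the list, 0.71. TRIM2 with 0.69, SETD7 with 0.68, and PNMA1 with 0.68 complete the first 10. The lowest values were those of RNF187 with -0.73, TRPC7 with -0.70, and PRDM8 with -0.69.

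The order depended on a few samples. LP day 1 samples 3 and 4 had the largest deviations of MX2, each -3.63 on the log2 scale. Without them the first 10 held 8 genes of the interferon list and shared 3 genes with the first 10 over all samples, and RNF213, an interferon-induced ubiquitin ligase, led with 0.81. With the 3 samples of high interferon-induced genes left out instead, the first 10 held none of the list and ZCCHC14 led with 0.80. Over the 18 samples left when all 5 were left out, CRY2 led with 0.75, ZCCHC14 followed with 0.72, and MX1 stood at 0.29. The 27 list genes other than MX1 had a median r of 0.88 with MX1 and 0.55 with MX2 over all 23 samples. Without LP day 1 samples 3 and 4, these medians were 0.90 with MX1 and 0.72 with MX2.

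ZCCHC14 was among the first 10 in each of these choices except the one without LP day 1 samples 3 and 4, where its r was 0.68. Its level was 2.37 to 11.4 CPM in SP samples, 2.97 to 10.3 CPM in those of LP day 1, 7.25 to 15.04 CPM in those of LP day 7, and 5.48 to 9.35 CPM in those of LP day 28. Its lowest LP day 1 levels, 3.43 and 2.97 CPM, were in samples 3 and 4, where MX2 had no count, although 2.97 CPM is a single count in the shallow sample 4. Its highest LP day 7 levels, 15.04, 14, and 11.3 CPM, were in samples 3, 5, and 1, where MX2 was also high. In sample 6, with MX2 at 77.5 CPM, ZCCHC14 was 8.23 CPM, nearer to the 7.42 and 7.25 CPM of samples 2 and 4. On SPs it was highest in sample 1 and stood at 6.64 CPM in sample 3, where MX2 was highest.

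The clock gene CRY1 fell into a low and a high range across samples, and its r with MX2 was -0.56 over the 23 samples and -0.49 over the 18. Of other clock genes among the first 10 over those 18 samples, ARNTL2 had an r of 0.65 and NR1D2 of 0.64. Over all 23 samples these values were 0.24 and 0.50, and CRY2, which led over the 18, had 0.32. The sampling time of each sample is not given in the sources used here. CRY1 was between 16.9 and 34.5 CPM in SP samples 1 and 3, LP day 1 samples 1 and 6, and samples 1, 3, and 5 of LP day 7 and LP day 28, and at 138 CPM or more in the other 13 samples. On SPs, MX2 was 30.5 and 88.3 CPM in the samples with low CRY1 and 5.08 to 14.3 CPM in the others. At LP day 1 it was 23.8 and 11.2 CPM against 0 to 27.7 CPM. The levels at LP day 7 were 61.8 to 804.6 CPM against 14.5 to 77.5 CPM, and at LP day 28 6.25 to 25.2 CPM against 7.19 to 18.3 CPM. FAM3B, the neighbor of MX2 on the side away from MX1, had r = 0.61 with MX2 over the 23 samples and 0.60 over the 18. This r was 0.26 without LP day 1 samples 3 and 4 alone, and 0.77 without the 3 samples of high interferon-induced genes alone. The level of FAM3B was 15.7, 8.66, and 9.60 CPM in LP day 7 samples 1, 5, and 6, against 2.95 to 3.56 CPM in the other 3 samples of that group. LP day 7 sample 3, with the highest MX2, was among those 3, at 3.31 CPM. FAM3B was named after its values were seen.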

How the data were processed

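PT RNA from 23 sheep samples was sequenced from Illumina cDNA libraries. The authors deposited raw counts of reads per Ensembl gene (Oar_v3.1), which were analysed as deposited. The study lists Bowtie and HTSeq count, whereas the file headers have the form featureCounts gives. Versions and strand handling are not given in the sources used here. MX2 and the gene lists were chosen with earlier results of these data known. Symbols came from the study's supplementary gene tables, which paired 1259 genes.

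In R 4.3.3, edgeR 4.0.16 normalized the 2 groups compared by TMM, kept a gene above 1 CPM in enough samples to fill the smaller group, and applied the quasi-likelihood test with Benjamini-Hochberg adjustment over all genes at an FDR of 0.05. The SE is the size of the log2 fold change over the root of the F statistic. Named genes were MX2, the 10 most and 3 least like it, the 3 most abundant of each interferon list, and the marker lists. Others (FAM3B, BST-2B, RNF213, CRY2, ARNTL2, NR1D2, NLRC5, CD274) were named after their values were seen. The test was tested on simulated data. Alternatives were library-size or DESeq2 size factors, no filter, DESeq2 1.42.0, voom of limma 3.58.1, a single fit of all groups, a replicate block, SP samples 2, 3, and 5 alone, LP day 1 samples 3 and 4 summed, and each sample left out. The exact test, a covariate that set sample numbers above 3 apart from the rest, and leaving out 3 or 5 samples were added after seeing the data. The labels do not say that this split is a batch.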

Additional observations from a re-analysis of the deposited data

Results flagged for a closer look

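Within a group, a level was marked when the highest or lowest sample lay far from the rest, measured as its gap to the nearest other sample divided by the range of the group. This happened in 39 of 112 groups of samples tested over 28 genes, and chance marks about 1 in 20. The count is a description and supports nothing, since these genes (MX2, the genes most like it, and the most abundant genes of each list) were chosen by these levels or with them known, and they are not independent of each other. In every case the sample marked was the highest.

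LP day 7 sample 3 was marked for MX2, with a gap of 0.917 of the range, and for 15 other genes. These were MX1 with 0.990, OAS2 with 0.988, IFI6 with 0.985, IFIT1 with 0.991, RSAD2 with 0.979, BST-2A with 0.987, ISG17 with 0.995, HERC6 with 0.993, UBA7 with 0.950, DDX58 with 0.986, DHX58 with 0.971, ZBP1 with 0.948, IRF7 with 0.900, IRF9 with 0.944, and TAP1 with 0.784. MX2 in SP sample 3 and in LP day 1 samples 3 and 4 was not marked, since sample 1 of the SP group lay in between and the 2 LP day 1 samples share the value 0.

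SP sample 3 was marked for MX1 with 0.983, OAS2 with 0.973, IFI6 with 0.944, IFIT1 with 0.948, RSAD2 with 0.906, BST-2A with 0.807, ISG17 with 0.945, HERC6 with 0.893, DDX58 with 0.843, DHX58 with 0.716, IRF7 with 0.734, IRF9 with 0.846, and SETD7 with 0.760. LP day 1 sample 5 was marked for MX1 with 0.863, OAS2 with 0.904, IFI6 with 0.827, IFIT1 with 0.714, ISG17 with 0.958, HERC6 with 0.796, and DHX58 with 0.697. LP day 28 sample 5 was marked for B2M with 0.793, CD74 with 0.791, and UBA7 with 0.719, and its summed immune cell markers of 156 CPM were the highest of its group. The part of immune cells in these 3 values was not tested.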

How the results depend on the processing

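No alternative normalization, filter, tool, or sample left out gave a call among the 28 interferon genes with the quasi-likelihood test, DESeq2, or voom. The exact test with a common dispersion, added after seeing the data, called 4, 20, and 16 of them at LP days 1, 7, and 28 against SPs, 20 between LP days 1 and 7, and 22 between LP days 7 and 28. With SP samples 2, 3, and 5 alone it called 5, 12, and 17, and without the 3 samples of high interferon-induced genes 2, 2, and 2 against SPs. The log2 fold change of MX2, with each sample left out in turn, ranged from -1.10 to 0.12 at LP day 1 against SPs, 0.74 to 3.49 at LP day 7 against SPs, -1.43 to -0.21 at LP day 28 against SPs, 1.56 to 3.59 at LP day 7 against LP day 1, and -3.96 to -1.91 at LP day 28 against LP day 7. The values of 0.12, 3.49, and -0.21 are those without SP sample 3, and those of 0.74, 1.56, and -1.91 without LP day 7 sample 3, the last also with the exact test. With voom and sample quality weights it was -1.71, 1.55, and -0.62 at LP days 1, 7, and 28 against SPs, 3.27 at LP day 7 against LP day 1, and -2.18 at LP day 28 against LP day 7. The number of the first 10 genes most like MX2 that remained among them was 5 with a pseudocount of 2 CPM or without LP day 1 sample 4, 8 by rank correlation, 3 without LP day 1 samples 3 and 4 or without the 3 high samples, and 1 without all 5. Over those 18 samples IFIT1 had r = -0.22 with MX2.

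With the sample number as a replicate block, the log2 fold change of MX2 was -0.41, 1.94, and -0.83 at LP days 1, 7, and 28 against SPs, 2.25 at LP day 7 against LP day 1, and -2.54 at LP day 28 against LP day 7, and 0 of the 28 genes were called in each. Same-numbered samples of 2 groups did not deviate together, with a mean r between -0.04 and 0.07 and single pairs from -0.18 to 0.26. No pairing by number was seen by this measure, which cannot exclude structure shared by a few genes. CRY1 was low in the odd-numbered and high in the even-numbered samples of both LP day 7 and LP day 28. Depth limits MX2 mainly in LP day 1 sample 4.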
